A study of Rattus norvegicus with 192 samples.

Results

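The PFOS series is a set of 6 TempO-Seq libraries, 1 in 32 of the libraries of the whole experiment, with 1 for each dose of perfluorooctanesulfonate (PFOS) at 0.4, 1.2, 3.7, 11.1, 33.3 and 100 µM. The members are the libraries whose titles name PFOS, and they were read as a dose series against 8 libraries treated with the solvent DMSO, replicates 2 to 9. DMSO replicate 1 stood apart from the other DMSO libraries and was left out. All libraries were primary hepatocytes of male rats, plated on collagen and exposed for 24 h, and DMSO was given at 0.1%. Strain, age and the number of animals are not given in the labels. Also used were 6 libraries of perfluorooctanoic acid (PFOA) at the same doses, and single libraries of 4 reference activators. The activators were WY-14,643 at 15 µM, pregnenolone 16-alpha-carbonitrile (PCN) at 15 µM, TCPOBOP at 1.5 µM and oltipraz at 30 µM. PFOS, PFOA and the activators were on plate 2, as were DMSO replicates 4, 5 and 6, while replicates 2 and 3 were on plate 1 and replicates 7, 8 and 9 on plate 3.

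PFOS is a persistent perfluorinated surfactant that accumulates in liver. It ends in a sulfonate group, where PFOA ends in a carboxylate group on a slightly shorter chain. Both are studied for their action on nuclear receptors of hepatocytes. PPARα, the target of WY-14,643, switches on genes of fatty acid oxidation. CAR and PXR, for which TCPOBOP serves as an activator in mouse and PCN in rat and mouse, switch on genes of drug metabolism. NRF2, which oltipraz activates, is released from its cytoplasmic inhibitor by electrophiles and switches on antioxidant genes through the antioxidant response element.

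Promoters are shown for 4 genes on which the results turn, since 3 of them rose with PFOS and the other, Abcc2, differed between PFOS and PFOA. They are RefSeq sequences of build GRCr8, 300 bases around the annotated start, written in the direction of the gene. Capitals mark matches to the core of the antioxidant response element, searched as TGACNNNGC on both strands. Whether a match is a working element was not tested, and bases outside the window were not searched. In Gsta2 (chr8:88077043-88077342, minus strand) the match lies on the strand opposite to the gene and starts at base 287. In Abcc2 (chr1:252613625-252613924, plus strand) it lies on the gene's own strand and starts at base 268. Nqo1 (chr19:52220218-52220517, minus strand) and Cyp2b2 (chr1:90722031-90722330, plus strand) have no match in this window. The core is held by 12.1% of all 33469 RefSeq promoters of this length. Of the 12 transcripts called below, 9 have a promoter in that set and 1 of these, Gsta2, holds it.
Gsta2: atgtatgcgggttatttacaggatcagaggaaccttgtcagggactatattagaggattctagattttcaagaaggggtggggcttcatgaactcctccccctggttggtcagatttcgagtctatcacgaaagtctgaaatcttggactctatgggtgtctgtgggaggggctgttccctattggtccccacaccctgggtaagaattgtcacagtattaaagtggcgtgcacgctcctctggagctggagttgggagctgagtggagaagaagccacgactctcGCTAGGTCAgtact
Abcc2: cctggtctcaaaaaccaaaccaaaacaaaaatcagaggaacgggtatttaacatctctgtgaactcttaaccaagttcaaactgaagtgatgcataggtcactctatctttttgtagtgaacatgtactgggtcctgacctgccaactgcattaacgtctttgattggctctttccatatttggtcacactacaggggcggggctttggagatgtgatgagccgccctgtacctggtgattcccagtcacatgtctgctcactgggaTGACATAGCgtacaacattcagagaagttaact
Nqo1: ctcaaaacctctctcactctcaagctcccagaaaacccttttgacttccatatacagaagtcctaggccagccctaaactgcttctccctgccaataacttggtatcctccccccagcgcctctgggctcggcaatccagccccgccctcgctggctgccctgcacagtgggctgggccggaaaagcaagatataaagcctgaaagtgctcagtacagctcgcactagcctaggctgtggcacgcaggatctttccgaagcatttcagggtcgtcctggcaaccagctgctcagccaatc
Cyp2b2: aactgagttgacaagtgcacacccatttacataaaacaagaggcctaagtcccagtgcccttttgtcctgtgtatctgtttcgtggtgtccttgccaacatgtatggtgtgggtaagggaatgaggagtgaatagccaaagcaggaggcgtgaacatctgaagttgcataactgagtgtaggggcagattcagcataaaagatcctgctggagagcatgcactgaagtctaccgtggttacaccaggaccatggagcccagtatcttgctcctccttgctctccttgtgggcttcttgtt

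Total counts were 2269704 in the library at 100 µM PFOS and 4273467 to 5737821 at the lower doses, 2304919 to 5592202 in the PFOA libraries and 2876741 to 8513985 in DMSO. Log profiles of the PFOS libraries correlated at 0.974 to 0.989 with the mean of the DMSO libraries, against 0.830 for PFOA at 100 µM and 0.939 for DMSO replicate 5. DMSO replicate 5 differed from the others of its plate along an axis on which it was set to 1 and the mean of replicates 4 and 6 to 0. The PFOS libraries scored between 0.0741 and 0.432 on it, with 0.432 at 3.7 µM and 0.415 at 33.3 µM, and PFOA at 100 µM scored 1.83. Markers of hepatocytes, 14 genes, summed to 32749 to 42552 CPM (counts scaled to a common library size) in PFOS libraries and 34664 to 61630 CPM in DMSO libraries. Markers of macrophages summed to 86.0 to 107 CPM with PFOS and 71.6 to 111 CPM in DMSO, those of endothelial cells to 42.9 to 54.7 CPM and 33.4 to 57.5 CPM, those of stellate cells to 198 to 254 CPM and 206 to 271 CPM, and those of bile duct cells to 11.0 to 19.8 CPM and 16.2 to 28.0 CPM. The macrophage marker Timd4 and the stellate cell marker Col1a1 were at 0 in all PFOS and DMSO libraries. In bulk samples fewer cells of a type and less RNA per cell cannot be told apart.

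Transcripts that rose with PFOS dose were mostly enzymes that modify and clear foreign compounds. Of 11055 probes tested, 12 passed (0.109%), of which 9 were higher (0.0814%) and 3 lower (0.0271%). The test was edgeR's quasi-likelihood test of a dose score with a term for plate, and p-values were adjusted by Benjamini-Hochberg with a threshold of 0.05. All PFOS libraries were on plate 2, so with this term the fitted changes rest on DMSO replicates 4, 5 and 6 as controls. The other DMSO libraries enter only the estimate of spread and the scaling. This holds for every fit with a plate term, while the DMSO ranges cover all 8 libraries. Changes are fitted log2 values at 100 µM, given ± the standard error, and levels are in CPM in the order of dose. At an unadjusted p under 0.05 there were 741 probes, and the median change of all probes was -0.02. The labels do not name separate cultures or animals, and the p-values therefore cover only library-to-library spread, possibly technical. All 12 calls were lost without the library at 100 µM, the shallowest of the 6, and when DMSO replicate 1 was put back. Without DMSO replicate 5 there were 27 calls, which held all 12. Leaving out DMSO replicate 2, 3 or 8 left 6 calls, replicate 6 left 5, replicate 7 left 8, PFOS at 0.4 or at 1.2 µM left 7, and PFOS at 33.3 µM left 5.

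Ephx1, the microsomal epoxide hydrolase that turns reactive epoxides into diols, had 909, 944, 1006, 1129.5, 1410.4 and 1908 CPM with PFOS. The DMSO libraries had a lowest, median and highest level of 764, 838 and 991 CPM. The level at 100 µM was 2.28 times the DMSO median, and the libraries at 3.7 µM and above exceeded every DMSO library. The fitted change was 1.04 ± 0.12 (adjusted p = 0.00127). Gsta2, an alpha class glutathione transferase subunit, had 211, 251, 266, 332, 389 and 521 CPM with PFOS, against a lowest, median and highest of 200.2, 222 and 259 CPM in DMSO. Its libraries at 3.7 µM and above also lay over all DMSO libraries, and it rose by 1.09 ± 0.13 (adjusted p = 0.00142). The probe of Gsta2 may also read close relatives. The oltipraz library had 2877 CPM of Ephx1 and 1626 CPM of Gsta2, above every PFOS library.

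Cyp2b2, a P450 known for its induction by phenobarbital through CAR, was near the detection limit at most doses and had 1.52, 2.07, 1.81, 2.69, 3.31 and 23 CPM with PFOS. DMSO libraries had a lowest, median and highest of 0.652, 1.55 and 3.15 CPM. The levels up to 11.1 µM lay within the DMSO range, that at 33.3 µM just above it and that at 100 µM, from 56 counts, 14.9 times the DMSO median. The fitted change was 3.57 ± 0.61 (adjusted p = 0.0337), and without the library at 100 µM it was 1.46. The TCPOBOP library had 46.5 CPM and the PCN library 1.15 CPM. Ugt2b10 and Ugt2b1, glucuronosyltransferases whose probes may not separate members of that family, rose by 1.14 ± 0.20 and 1.07 ± 0.19 (adjusted p = 0.0337 for both). Ugt2b10 had 192.3, 244, 232, 298, 415 and 573 CPM with PFOS, against a lowest, median and highest of 176, 236 and 336 CPM in DMSO. Ugt2b1 had 56.6, 50.9, 49.9, 65.5, 79.8 and 126 CPM, against 41, 50.1 and 78.5 CPM in DMSO. For both, only the libraries at 33.3 and 100 µM lay above all DMSO libraries, and the PCN library was higher still, with 1453 CPM of Ugt2b10 and 424 CPM of Ugt2b1.

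Of the 23 tested genes listed as induced through CAR and PXR, these 5 rose and none fell, with a median change of 0.22 in the list. Of all tested probes 0.0814% rose and 0.0271% fell, with a median change of -0.02. Lists are described by their counts and medians alone. Cyp3a23/3a1, the classic PXR-induced P450, did not pass. It had 17.8, 18, 18.5, 16.9, 16.5 and 34.2 CPM with PFOS and a lowest, median and highest of 13.9, 19.99 and 28.5 CPM in DMSO, so that only the library at 100 µM was above the DMSO range, and its fitted change was 0.51 ± 0.26 (adjusted p = 0.769). The PCN library had 191 CPM. Por, the electron donor of the P450 enzymes, had 269.6 to 363 CPM with PFOS, within the 246 to 459.7 CPM of DMSO. The upper end is DMSO replicate 5 alone. The other 7 DMSO libraries had 246 to 305 CPM, and PFOS at 100 µM, with 363 CPM, lay above them. Leaving out DMSO replicate 2, 3, 6 or 8, or PFOS at 0.4 or 1.2 µM, left 2 list members called, replicate 7 or PFOS at 33.3 µM left 3, and PFOS at 100 µM left 0.

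**Figure D1:**
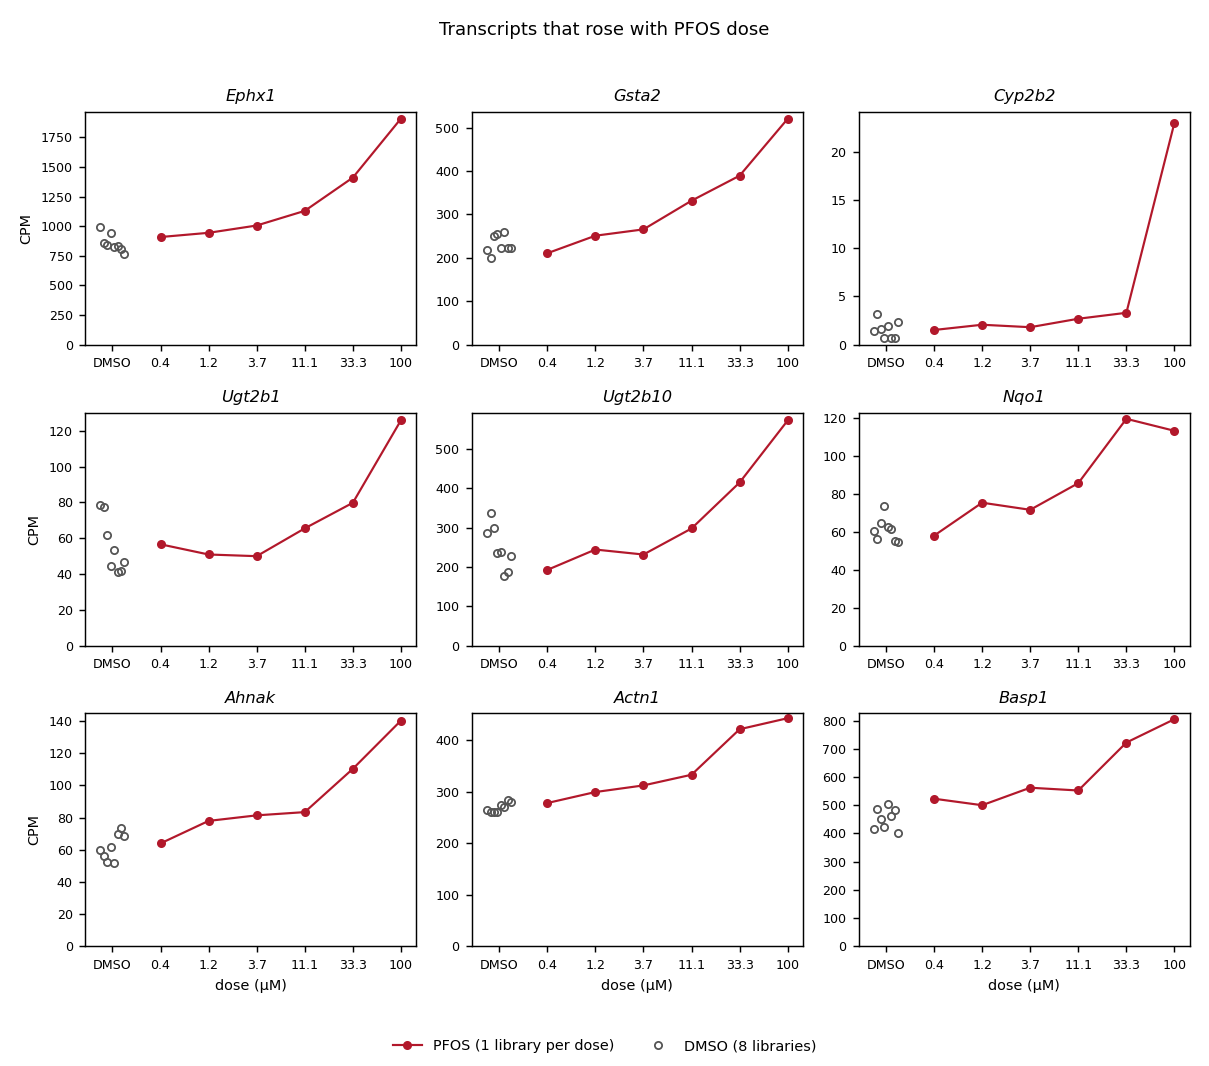
Levels in CPM (linear axis from 0) of the 9 transcripts that rose, by PFOS dose in µM, with 1 library per dose joined by lines and 8 DMSO libraries as open points. Ephx1 and Gsta2 climb over 4 doses above the DMSO points, while Cyp2b2 lies apart from DMSO mainly at 100 µM, with 23 CPM.

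Of 24 tested antioxidant genes of the NRF2 list 3 rose and none fell, while of all probes 0.0814% rose and 0.0271% fell. The median change of the list was 0.58, and 20 of its members had a positive estimate. Ephx1 and Gsta2 are on this list too, and the third is Nqo1, the quinone reductase often read as the marker of NRF2. Nqo1 had 57.9, 75.3, 71.5, 85.6, 119 and 113 CPM with PFOS, against a lowest, median and highest of 54.4, 60.7 and 73.6 CPM in DMSO, and rose by 0.92 ± 0.15 (adjusted p = 0.0334). The library at 1.2 µM and those from 11.1 µM up lay above all DMSO libraries. The oltipraz library had 389 CPM. Nqo1 is also on the list of 4 tested genes induced through the aryl hydrocarbon receptor, whose best known member, Cyp1a1, had 1.09 to 2.97 CPM with PFOS and 0 to 3.29 CPM in DMSO and did not pass (adjusted p = 0.838).

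Other NRF2 genes did not pass for the dose trend. Akr7a3, an aldehyde reductase that detoxifies aflatoxin aldehydes, had 131, 135, 140.4, 151, 153 and 226 CPM with PFOS, against a lowest, median and highest of 59, 80.7 and 105 CPM in DMSO. All 6 PFOS libraries lay above all 8 DMSO libraries, and the fitted change was 1.12 ± 0.22 (adjusted p = 0.0887). Gclc, the catalytic subunit for glutathione synthesis, had 150.1, 186, 183, 225, 205 and 216 CPM with PFOS and 120.4, 144 and 181 CPM as lowest, median and highest in DMSO, with a fitted change of 0.72 ± 0.18 (adjusted p = 0.264). Hmox1, the haem oxygenase, had 555 to 726 CPM with PFOS and 254 to 574 CPM in DMSO, at a fitted change of 1.22 ± 0.33 (adjusted p = 0.34). On their own plate, DMSO replicates 4, 5 and 6 had 283, 254 and 296 CPM of Hmox1.

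The last 3 transcripts that rose encode structural or membrane-bound proteins. Ahnak, a very large scaffold protein under the plasma membrane, had 64, 78, 81.4, 83.4, 110.3 and 140.3 CPM with PFOS, against a lowest, median and highest of 52.1, 61 and 73.8 CPM in DMSO. It rose by 1.24 ± 0.14 (adjusted p = 0.00127), and the libraries from 1.2 µM up exceeded all DMSO libraries. Actn1, an actin cross-linker, had 278, 299, 312, 333, 421 and 443 CPM with PFOS and 260.2, 267 and 285 CPM as lowest, median and highest in DMSO. Its rise of 0.76 ± 0.11 (adjusted p = 0.00838) was small in size, but 5 of 6 PFOS libraries lay above the narrow DMSO range. Basp1, a membrane-attached protein, had 523, 500.2, 562, 552, 722 and 805 CPM with PFOS, against 402, 458 and 505 CPM in DMSO, and rose by 0.76 ± 0.13 (adjusted p = 0.0341). Basp1 at 1.2 µM was within the DMSO range and the other PFOS libraries were above it.

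Among the transcripts that fell, LOC102552988, which has no described function in the sources used here, had 13.7, 11.4, 11.9, 7.36, 6.03 and 4.53 CPM with PFOS. The lowest, median and highest DMSO levels were 15.4, 18.7 and 27.2 CPM. All 6 PFOS libraries lay below all 8 DMSO libraries, with a fitted change of -2.003 ± 0.25 (adjusted p = 0.00142). Akr1c1, an aldo-keto reductase of the steroid-reducing family, had 67.5, 52.1, 56.2, 48.3, 39.9 and 35.8 CPM with PFOS, against 62.2, 80.4 and 107 CPM as lowest, median and highest in DMSO. The library at 0.4 µM lay within the DMSO range and the other 5 below it, with a fitted change of -1.23 ± 0.19 (adjusted p = 0.0157).

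Mtus1 encodes a microtubule-associated protein, and 1 of its 2 tested probes fell. That probe had 85.9, 86.6, 85, 63.3, 61.5 and 35.4 CPM with PFOS and 74, 87.7 and 114 CPM as lowest, median and highest in DMSO, with a change of -1.13 ± 0.20 (adjusted p = 0.0393). The 3 highest doses lay below the DMSO range. The second Mtus1 probe changed by -0.08 ± 0.15 (adjusted p = 0.964), so the fall holds for 1 probe and not for the gene as a whole.

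**Figure D2:**
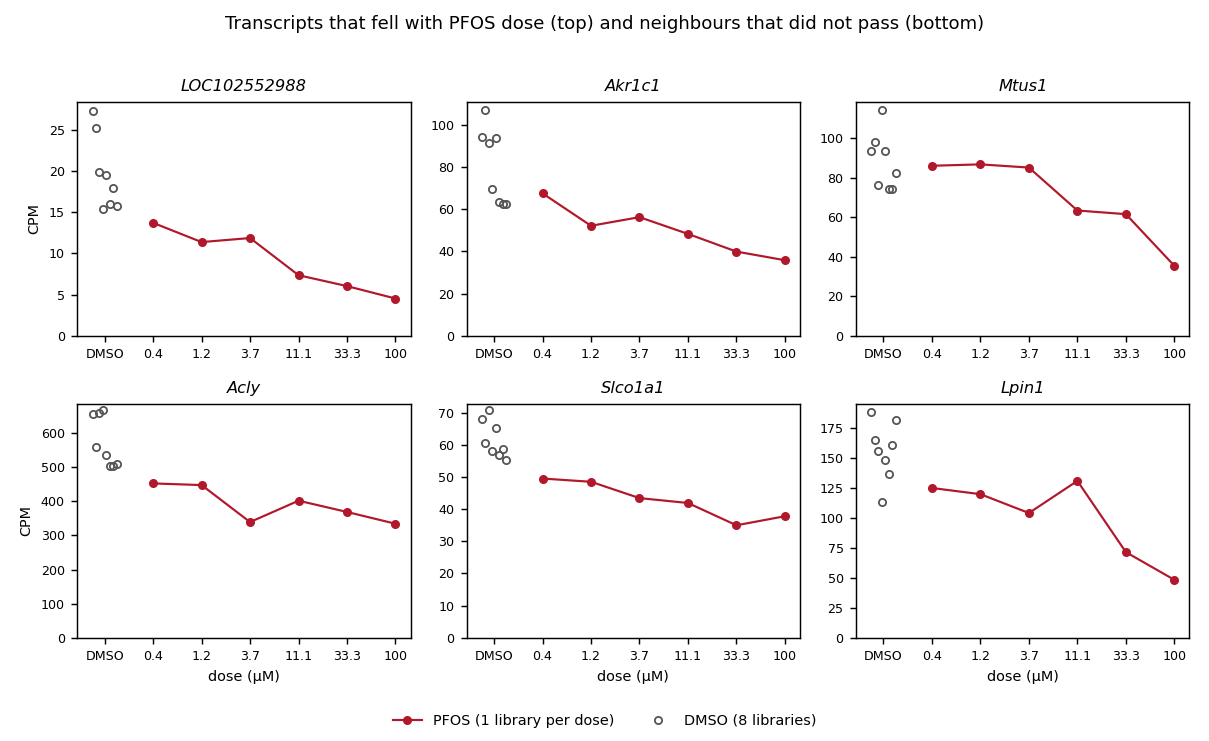
Levels in CPM (linear axis from 0) by PFOS dose in µM for the 3 transcripts that fell (top row) and for Acly, Slco1a1 and Lpin1, which did not pass (bottom row). Lines join single PFOS libraries and open points are the 8 DMSO libraries; LOC102552988, Acly and Slco1a1 lie below all DMSO points at every dose.

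Other transcripts had lower estimates that did not pass. Cytl1, a secreted cytokine-like protein, had 7.83, 9.51, 7.25, 5.02, 4.48 and 2.06 CPM with PFOS and 9.24, 12.8 and 17.7 CPM as lowest, median and highest in DMSO, with a change of -2.07 ± 0.38 (adjusted p = 0.0508). Cdo1, the cysteine dioxygenase that starts taurine synthesis, changed by -1.11 ± 0.22 (adjusted p = 0.0923), with 71.2 to 147 CPM for PFOS against 125 to 200.1 CPM in DMSO. Slco1a1, an uptake transporter for bile acids and organic anions, had 49.6, 48.6, 43.5, 42, 35 and 37.9 CPM with PFOS and 55.4 to 71.1 CPM in DMSO, below DMSO in 6 of 6 libraries, at -0.85 ± 0.17 (adjusted p = 0.101). Lpin1, a phosphatidate phosphatase, had 48.1 CPM at 100 µM PFOS and 113 to 188 CPM in DMSO, at -1.22 ± 0.25 (adjusted p = 0.101). Acly, which makes cytosolic acetyl-CoA for lipid synthesis, had 335 to 453 CPM with PFOS and 505 to 670.2 CPM in DMSO, at -0.83 ± 0.19 (adjusted p = 0.18).

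None of the other lists had a called member in the dose trend, so the signs below only describe estimates that did not pass. Over all probes the median change was -0.02. Estimates were negative for all 12 tested genes of bile acid synthesis and transport, with a median of -0.53, and for all 14 of the unfolded protein response, with a median of -0.36. They were negative for 14 of 18 genes of fatty acid synthesis (median -0.36), 21 of 24 of the urea cycle and amino acid breakdown (median -0.47), 17 of 24 of the acute phase (median -0.28) and 13 of 14 hepatocyte markers (median -0.29). The summed hepatocyte markers were lowest at 100 µM PFOS, at 32749 CPM, and the part of this in those lists was not tested. Cholesterol synthesis, 21 genes, had a median of -0.25. Medians for p53 targets (13 genes), the cell cycle (21 genes), the integrated stress response (24 genes) and heat shock (12 genes) were 0.17, 0.22, 0.04 and 0.05. Ddit3, the CHOP factor of the integrated stress response, had 43.8 to 65.9 CPM with PFOS and 45.8 to 73.7 CPM in DMSO.

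Single PFOS libraries were also compared with DMSO dose by dose, each assumed to vary as DMSO libraries do, with no second library to repeat it. At 0.4 µM no probe passed (0%, 519 at an unadjusted p under 0.05). At 1.2 µM 2 passed (0.0181%), both probes with numbered names that the file alone gives, AABR07007905.20.0196 at 3.43 ± 0.32 and AABR07037395.20.0252 at 3.57 ± 0.25, called at no other dose. At 3.7 µM 7 passed (0.0633%). Adm, the vasodilator peptide adrenomedullin, was higher there by 1.36 ± 0.18. Cps1, the entry enzyme of the urea cycle, was lower at -1.73 ± 0.23, with 102, 193, 71.7, 203, 115 and 78.6 CPM over the doses against 196 to 293 CPM in DMSO. Ndufa5, a respiratory complex subunit, was lower at -2.17 ± 0.28, while Upb1 and Hdac1 were lower on 6 and 3 counts. No probe passed at 11.1, 33.3 or 100 µM (0% each, with 414, 405 and 683 at an unadjusted p under 0.05). These counts move with the controls, since the library at 3.7 µM had 330 calls without DMSO replicate 5 and 0 without any other DMSO library. Without replicate 5 there were also 43 calls at 33.3 µM, 40 at 100 µM and 5 at 0.4 µM.

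Several transcripts differed from DMSO by about the same amount at all PFOS doses. With DMSO at a dose score of 0, such a step enters the fitted dose trend in part. Hmox1 and Adm had trend estimates of 1.22 and 1.05, which did not pass. A trend estimate alone therefore does not separate a step from a graded rise. With the 6 libraries taken as a group, an alternative added after the data were seen, 73 probes passed (0.66%), 25 higher (0.226%) and 48 lower (0.434%). The count was 88 without DMSO replicate 5, sharing 35 probes. It was 21 without replicate 2 or 3, 4 without replicate 4, 47 without 7, 22 without 8 and 34 without 9, and 35, 27, 21, 16 and 15 without PFOS at 0.4, 1.2, 3.7, 11.1 and 33.3 µM. The genes named here were chosen after their values were seen. Adm had 178, 191, 243, 201, 195 and 233 CPM with PFOS, against 90.8, 101 and 95.1 CPM in DMSO replicates 4, 5 and 6 of the same plate and 80.1 to 189.8 CPM over all DMSO libraries. It was higher by 1.13 ± 0.12 (adjusted p = 0.000556). Fosl1, a subunit of the AP-1 transcription factor, had 75.1, 83.1, 78.3, 77.9, 99.2 and 91.8 CPM with PFOS and 26.4 to 49.3 CPM in DMSO, higher in 6 of 6 libraries by 1.25 ± 0.14 (adjusted p = 0.000556). Hmox1 was higher by 1.22 ± 0.14 (adjusted p = 0.00106). DMSO replicates 7, 8 and 9 of plate 3 had 149, 158 and 190 CPM of Adm and 352, 441 and 574 CPM of Hmox1. For both genes replicate 9 lay above PFOS at 0.4 µM, which had 178 CPM of Adm and 555 CPM of Hmox1. The higher levels of Adm and Hmox1 than in DMSO of plate 2 were not particular to PFOS. PFOA had 163 to 419 CPM of Adm and 499 to 948 CPM of Hmox1, with 234 and 558 CPM at 0.4 µM. The oltipraz, TCPOBOP and PCN libraries had 278, 137 and 165 CPM of Adm and 449, 449 and 444 CPM of Hmox1. WY-14,643 had 83.8 and 301 CPM. For Fosl1, PFOA had 14.2 to 44.7 CPM and the 4 activators 45.2 to 258 CPM. Acox2, a peroxisomal oxidase of bile acid side chains, had 12.7 to 19 CPM with PFOS, against 18.1 to 35 CPM in DMSO, a change of -1.03 ± 0.14 (adjusted p = 0.00303). DMSO replicates 4, 5 and 6 of plate 2 had 33.2, 30.4 and 35 CPM of Acox2. Replicates 7, 8 and 9 of plate 3 had 18.8, 18.1 and 19.9 CPM, close to PFOS. PFOA had 4.62 to 35.8 CPM of Acox2 and the 4 activators 7.89 to 28.2 CPM. Treatment and the position of the PFOS wells on the plate cannot be told apart, since each dose had 1 well.

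PFOS and PFOA were compared as 1 pair at their 6 shared doses, by the difference of their dose slopes in 1 fit, written as PFOS minus PFOA on the log2 scale at 100 µM. Here 445 of 11055 probes passed (4.03%), 173 higher with PFOS (1.56%) and 272 lower (2.46%), with 2084 at an unadjusted p under 0.05. Of 39 tested genes induced through PPARα, 31 were lower with PFOS than with PFOA and none higher, with a median difference of -2.04 against -0.03 over all probes. In the dose trend of PFOS alone none of the 39 passed, with a median of 0.10. Both chemicals were set against the same DMSO libraries. Higher or lower here means PFOS relative to PFOA, and such a gene need not differ from DMSO with PFOS. In the joint fit the list's median change was 0.12 for PFOS and 2.18 for PFOA.

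Cyp4a1, the fatty acid omega-hydroxylase that marks PPARα activation in rat liver, had 37, 39.1, 39.7, 36.1, 37.9 and 72.8 CPM with PFOS, 36.4, 35.1, 69.5, 215, 671 and 689 CPM with PFOA and a lowest, median and highest of 33.6, 37.6 and 52.1 CPM in DMSO. PFOS exceeded the DMSO range only at 100 µM, PFOA from 3.7 µM up, and the difference was -4.04 ± 0.41 (adjusted p = 2.6e-05). The WY-14,643 library had 968 CPM. Ehhadh, the bifunctional enzyme of peroxisomal oxidation, had 1.96, 2.48, 3.63, 2.33, 2.34 and 4.94 CPM with PFOS and 3.62, 2.68, 4.78, 16.6, 196 and 153 CPM with PFOA, against 1.89, 2.49 and 4.03 CPM in DMSO, a difference of -6.19 ± 0.69 (adjusted p = 4.63e-05). Acot1, a cytosolic acyl-CoA thioesterase, was near 0 in DMSO, with 0, 0.289 and 0.973 CPM as lowest, median and highest. It had 0.435, 0, 0, 0.179, 0.195 and 2.47 CPM with PFOS and 0, 0.243, 0, 2.35, 127 and 209.8 CPM with PFOA, a difference of -8.26 ± 1.17 (adjusted p = 0.000272) whose size rests on very low counts below 33.3 µM. The WY-14,643 library had 426 CPM of Acot1.

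Pdk4, the kinase that turns off pyruvate oxidation in fasting, had 3.95 to 8.24 CPM with PFOS, 3.86 to 98.8 CPM with PFOA and 4.62 to 9.52 CPM in DMSO, and differed by -4.45 ± 0.61 (adjusted p = 0.000183). The lipid droplet coat Plin2 differed by -1.33 ± 0.17 (adjusted p = 0.000102), with 696 to 823 CPM for PFOS inside the 641 to 905 CPM of DMSO. The fatty acid binding protein Fabp1 had 78.3, 104, 89, 89.5, 64.6 and 77.4 CPM with PFOS, all within the 62.2 to 119.6 CPM of DMSO, and 63.4, 106, 94.9, 202, 389 and 165 CPM with PFOA. PFOA was above the DMSO range at 11.1, 33.3 and 100 µM, and the chemicals differed by -2.04 ± 0.41 (adjusted p = 0.0067). For Cpt1a, the gate of mitochondrial fatty acid entry, the difference of -0.85 ± 0.39 did not pass (adjusted p = 0.249, 95% interval -1.67 to -0.02), nor did that of Cd36 at -1.46 ± 0.44 (adjusted p = 0.0695).

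**Figure D3:**
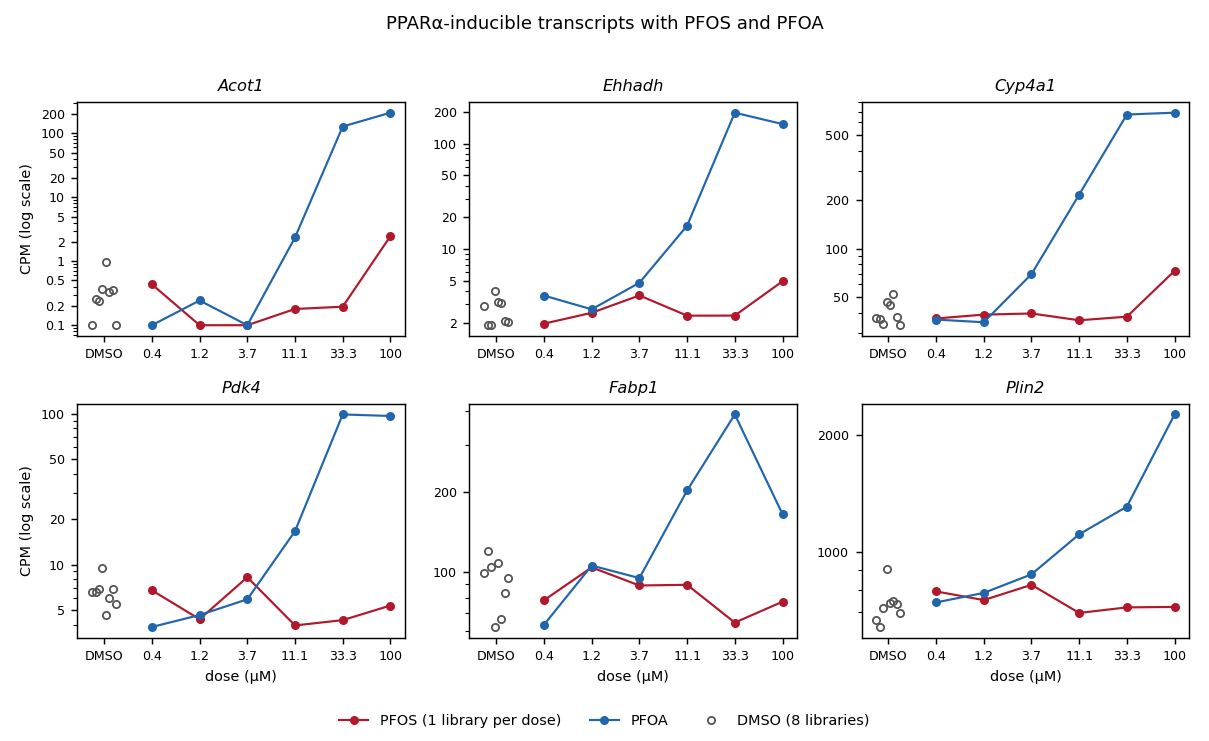
Levels in CPM on a log axis by dose in µM for 6 PPARα-inducible transcripts, with PFOS and PFOA as lines through single libraries and 8 DMSO libraries as open points; levels under 0.1 CPM are drawn at 0.1. PFOA lies above all DMSO points at 11.1 µM and higher in each panel, and PFOS shows no such climb below 100 µM, with 72.8 CPM of Cyp4a1 at 100 µM against 689 CPM for PFOA.

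Of the 24 tested NRF2 genes 7 were higher with PFOS than with PFOA and none lower, with a median difference of 0.54. Of all probes 1.56% were higher and 2.46% lower, with a median difference of -0.03. Nqo1, at 57.9 to 119 CPM with PFOS, had 41.7, 40.2, 42.8, 36.2, 37.7 and 31.8 CPM with PFOA, below its 54.4 to 73.6 CPM in DMSO at every dose, and differed by 2.11 ± 0.23 (adjusted p = 3.33e-05). Akr7a3 had 63.9, 82.8, 80.2, 59.7, 49.9 and 49.1 CPM with PFOA, lower than PFOS at each dose, and differed by 2.32 ± 0.26 (adjusted p = 4.63e-05). Akr1b8, an aldose reductase family member, had 20.6 to 26.9 CPM with PFOS and 4.05 to 11.2 CPM with PFOA, against 7.86 to 21.9 CPM in DMSO, and differed by 2.82 ± 0.59 (adjusted p = 0.00967). Gsta2 differed by 0.88 ± 0.17 (adjusted p = 0.00525) and Gclc by 0.83 ± 0.23 (adjusted p = 0.0492), and 23 of 28 alternatives ended the call of Gclc. The remaining 2, named after their values were seen, were thioredoxin reductase Txnrd1 at 1.74 ± 0.48 (adjusted p = 0.0444) and sulfiredoxin Srxn1 at 1.02 ± 0.27 (adjusted p = 0.0395). Their calls ended in 18 and 17 of 28 alternatives. Leaving out any of DMSO replicates 2, 3, 4, 6, 8 and 9, PFOS at 0.4, 11.1, 33.3 or 100 µM, or PFOA at 1.2 or 3.7 µM gave 4 calls in this list.

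Abcc2, the canalicular export pump for conjugates whose promoter is shown above, had 69.8, 75.3, 87.7, 89.3, 125 and 109 CPM with PFOS, 71.4, 67, 46.9, 34.5, 32.3 and 28.3 CPM with PFOA and 57.2 to 99.8 CPM in DMSO. The 2 chemicals moved apart from 3.7 µM up, and the difference was 2.27 ± 0.26 (adjusted p = 4.63e-05). The 3 structural transcripts that rose with PFOS were also separated, with differences of 1.82 ± 0.22 for Actn1, 2.09 ± 0.24 for Basp1 and 1.49 ± 0.19 for Ahnak (adjusted p = 6.21e-05, 4.63e-05 and 0.000102). Actn1 had 83.2 CPM and Basp1 178 CPM at 100 µM PFOA, both below the DMSO range, while at 100 µM PFOS they had 443 and 805 CPM.

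**Figure D4:**
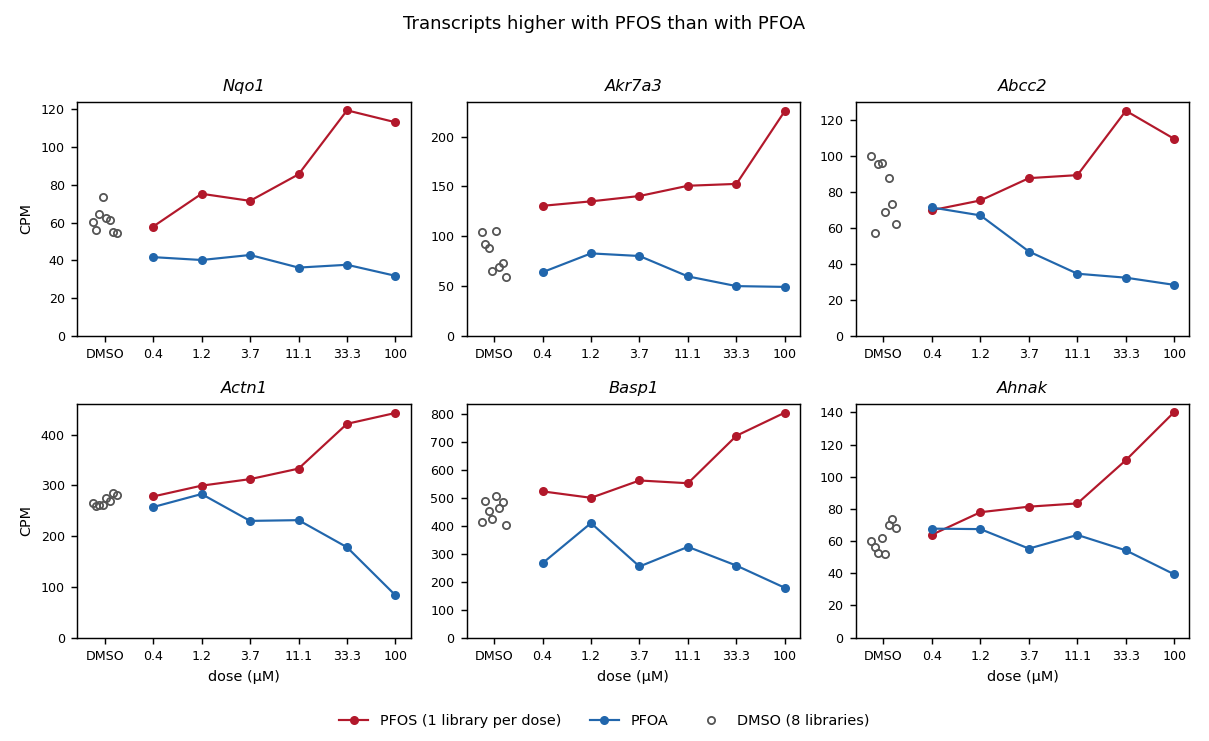
Levels in CPM (linear axis from 0) by dose in µM for 6 transcripts higher with PFOS than with PFOA, with lines through single libraries and 8 DMSO libraries as open points. Nqo1 reaches 113 CPM at 100 µM PFOS and 31.8 CPM at 100 µM PFOA.

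Beyond these lists, the probes lowest with PFOS relative to PFOA included the phosphate transporter Slc34a2 at -4.39 ± 0.55, with 10.0 to 17.7 CPM for PFOS and 16.8 to 330.1 CPM for PFOA (adjusted p = 8.14e-05). Lman1l differed by -4.69 ± 0.57 (adjusted p = 6.21e-05) and the steroid hydroxylase Cyp17a1 by -3.93 ± 0.82 (adjusted p = 0.00888), both at low levels. Scd1, the stearoyl-CoA desaturase, had 212 to 369.5 CPM with PFOS, 427 to 3056 CPM with PFOA and 259 to 381 CPM in DMSO, and differed by -3.18 ± 0.37 (adjusted p = 4.63e-05). Por differed by -1.74 ± 0.30 (adjusted p = 0.00211), with 363 CPM at 100 µM PFOS and 1608 CPM at 100 µM PFOA. Of 24 tested genes of the integrated stress response 4 were lower with PFOS, against 2.46% of all probes. Among the 4 were Ddit4 at -2.80 ± 0.45 and Ddit3 at -1.47 ± 0.24 (adjusted p = 0.00102 for both). PFOA at 100 µM stood apart from the other libraries. Without it 552 probes passed, of which 239 were shared, and 34 PPARα genes were called. Leaving out PFOS at 33.3 or 100 µM left 201 and 182 calls, and leaving out PFOA at 11.1 or 33.3 µM gave 691 and 837.

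Calls in other lists stand beside all probes, of which 1.56% were higher with PFOS than with PFOA and 2.46% lower. No test of a list as a whole was made. Of 12 tested genes of gluconeogenesis and glucocorticoid response 2 were lower with PFOS than with PFOA and 1 higher, with a median of -0.61. The gluconeogenic phosphatase Fbp1 was 1 of the lower genes, at -2.01 ± 0.25 (adjusted p = 8.49e-05). Of 17 lipoprotein genes the lipid transfer protein Mttp was lower at -1.76 ± 0.33 (adjusted p = 0.00351). Of 18 liver transcription factors the aryl hydrocarbon receptor Ahr was higher at 1.34 ± 0.33 (adjusted p = 0.0279), a call that 6 of 28 alternatives ended. In the joint fit Ahr changed by -0.07 with PFOS and -1.41 with PFOA, so it did not rise with PFOS. Of 24 genes of the urea cycle and amino acid breakdown 3 were lower and 1 higher, of 18 of fatty acid synthesis 2 were lower, of 24 of the acute phase 3 were higher, of 12 of bile acid handling 1 was higher and of 14 of the unfolded protein response 1 was lower. No gene passed among those of cholesterol synthesis, p53, the thyroid hormone response or oxidative phosphorylation.

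Probes highest with PFOS relative to PFOA were mostly low in level. Mki67, a marker of dividing cells, had 7.42 to 17.3 CPM with PFOS, 0 to 7.06 CPM with PFOA and 7.13 to 14.3 CPM in DMSO, and differed by 2.77 ± 0.57 (adjusted p = 0.00777). With it, Mcm2, Mcm4 and Mcm5 of the replication helicase and Top2a, the DNA topoisomerase of dividing cells, made up the 5 of 21 cell cycle genes that were higher, and none was lower. The calls of Mcm4 and Top2a each ended in 19 of 28 alternatives, that of Mcm5 in 18 and that of Mcm2 in 7. Without PFOS at 33.3 µM, Mki67 was the only 1 of the 5 that passed. Ccl2, a monocyte attractant, differed by 3.87 ± 0.78 (adjusted p = 0.00697), with 0.827 to 2.47 CPM for PFOS, and Oasl, an interferon-induced gene, by 2.94 ± 0.69 (adjusted p = 0.0186). Hspa1a, the inducible heat shock protein, had 42.8 CPM at 100 µM PFOS and 10.4 CPM at 100 µM PFOA, and differed by 1.47 ± 0.30 (adjusted p = 0.00697). Of 12 tested heat shock genes it and the small heat shock protein Hspb1, at 0.87 ± 0.22 (adjusted p = 0.0291), were higher with PFOS than with PFOA, and the mitochondrial chaperonin Hspd1 was lower at -1.33 ± 0.31 (adjusted p = 0.0188). The call of Hspa1a ended in 1 of 28 alternatives, that without the 100 µM libraries of both chemicals. Those of Hspb1 and Hspd1 ended in 6 and 5. In the joint fit Hspa1a changed by 0.60 with PFOS and -0.87 with PFOA, Hspb1 by 0.14 and -0.74, and Hspd1 by 0.30 and 1.63. Of 11 tested macrophage markers C1qc and Cd5l were higher and none lower, at 1.58 ± 0.38 and 1.58 ± 0.38 (adjusted p = 0.0219 and 0.0226), and the part of other cells in the well was not tested. Both of these markers changed by -0.08 with PFOS and -1.66 with PFOA in the joint fit.

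For several genes described above the test of a difference between the 2 chemicals was not passed. For Ephx1 the difference was 0.08 ± 0.15 with a 95% interval of -0.23 to 0.39 (adjusted p = 0.826), and PFOA had 948, 865, 1106, 1056, 1396 and 1801 CPM. For LOC102552988 it was -0.23 ± 0.35 with an interval of -0.97 to 0.51, and PFOA had 17.4, 12.7, 19.1, 7.96, 7.16 and 2.89 CPM. Intervals were wide for Cyp2b2 (-2.67 to 0.06), Ugt2b10 (-0.17 to 1.21), Ugt2b1 (-0.25 to 1.23), Akr1c1 (-0.07 to 1.44) and Cyp3a23/3a1 (-1.78 to 0.21), and each of them reaches past 1 log2 unit on 1 side. Cyp2b2 had 0.964, 0.73, 4.04, 7.96, 26.8 and 12.7 CPM with PFOA, above the DMSO range from 3.7 µM, while PFOS was above it at 33.3 and 100 µM. Hmox1 differed by -0.21 ± 0.37 with an interval of -0.98 to 0.55.

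**Figure D5:**
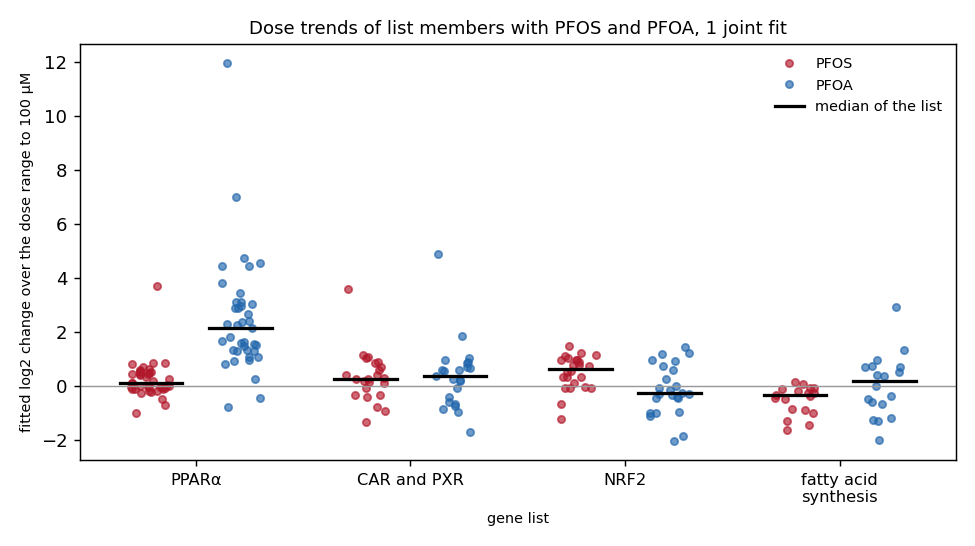
Fitted log2 change over the dose range to 100 µM in 1 joint fit, PFOS left of PFOA, for the tested members of 4 gene lists; each point is a gene and bars are list medians. The PPARα medians are 0.12 for PFOS and 2.18 for PFOA, and the NRF2 medians 0.66 for PFOS and -0.25 for PFOA.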

How the data were processed

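TempO-Seq counts ligated pairs of detector probes on RNA of whole wells. The authors deposited 1 table of whole-number counts for 22253 probes in all libraries of the experiment, raw as far as the values show. Alignment used Bowtie, per the submitters' processing notes, with the version, the probe sequences and the genome not stated by any source used here. Libraries were grouped by the labelled chemical, dose and plate. The members, gene lists and tests were chosen with earlier results of these data known. The filter kept 11055 probes that reached 1.74 CPM, worth 10 counts in a library of median depth, in 6 or more libraries. Fits were made with edgeR 4.0.16 under R 4.3.3, with TMM scaling, a plate term and a dose score of log2(1 + dose in µM) with DMSO at 0. CPM use TMM-scaled library sizes. Ligation products are amplified, so counts are not independent molecules and precision reflects the spread between libraries. No 2 of the compared libraries agreed within sampling noise (chi-square per degree of freedom at least 3.02 over 190 pairs). The fits were also run on simulated counts, which held no plate effect and no shifted library and so cannot speak to those features. Named genes were up to 12 called probes in each direction with the largest change, whose mean count reached 10 and whose sign held without 100 µM (the 5 smallest p where fewer passed), up to 4 members per list and a fixed panel. Of 24 lists, the thyroid, oxidative phosphorylation, lipoprotein, gluconeogenesis and liver factor genes had 0 called in the dose trend, and their calls against PFOA are given above. Alternatives were DESeq2 1.42.0, its size factors, no filter, no plate term, rank doses, a library score covariate and leaving out libraries. A few genes are not reported here.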

Additional observations from a re-analysis of the deposited data

Results flagged for a closer look

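The 8 DMSO libraries were examined for a single library far from the other 7, over 95 measures (levels of genes and library properties), and 15 showed one. Chance gives about 1 in 20 such cases for independent measures. These measures share the same 8 libraries and are not independent, and 1 of them, the score of replicate 5, was fixed in advance. Of the 15, 10 belong to DMSO replicate 5. Its score on its own axis was 1 by construction, with -0.149 to 0.184 in the other DMSO libraries, and its correlation with the others was 0.939, against 0.984 to 0.990. It was highest for Por at 460 CPM (246 to 305 in the others), Mttp at 178 CPM (82.9 to 104), Acaca at 372 CPM (171 to 258), Plin2 at 905 CPM (641 to 748), Pdk4 at 9.52 CPM (4.62 to 6.87), Hspb1 at 261 CPM (145 to 183), Il1r1 at 506 CPM (275 to 370) and Herpud1 at 1548 CPM (778 to 1043). Replicate 2 was highest for Scd1 at 381 CPM (259 to 314). Replicate 6 was highest for Acot1 at 0.973 CPM (0 to 0.366) and lowest for Lman1l at 0.973 CPM (1.90 to 2.72). Replicate 9 was highest for Tmem255b at 4.38 CPM (0.126 to 1.63) and for the probe Eno20.000001 at 3.29 CPM (0.126 to 0.761).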

How the results depend on the processing

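No paired analysis was possible because PFOS has 1 library per dose and only DMSO libraries carry replicate numbers. No result turned its direction while called. The 12 dose trend calls became 59 with DESeq2 (18 higher, 41 lower) and 23 with no plate term, each of which held 10 of the 12. Cyp2b2 and LOC102552988 were lost with DESeq2, and Mtus1 and Ugt2b1 with no plate term. The count was 82 with the library score as a covariate, which held all 12. It was 4 with DMSO of plate 2 only and 0 with DMSO replicate 1 included (252 at an unadjusted p under 0.05). Leaving out 1 library gave 0 to 27. The 5 CAR and PXR members became 0 with replicate 1, 2 by rank dose, 2 with plate 2 only and 2 without both replicate 5 and 100 µM, and 0 to 5 by leaving out 1 library. The 3 NRF2 members became 6 with DESeq2, 7 with the covariate and 0 with replicate 1, and 0 to 4 by leaving out 1 library. The calls of Ephx1, Gsta2 and Ahnak ended in 2 of 23 alternatives, with replicate 1 included and without 100 µM. Those of LOC102552988 ended in 3, Actn1 and Akr1c1 in 5, Nqo1 in 12, Cyp2b2 and Ugt2b10 in 13, Ugt2b1 in 14, Basp1 in 15 and Mtus1 in 16. The 445 differences from PFOA became 838 with DESeq2 (260 higher, 578 lower), 1322 with the covariate (688 higher, 634 lower) and 117 with replicate 1, and 182 (without PFOS at 100 µM) to 837 (without PFOA at 33.3 µM) by leaving out 1 library. Without both 100 µM libraries there were 414, of which 189 were shared, and without PFOA at 100 µM 552, of which 239 were shared. The 31 PPARα members became 20 with replicate 1, and the 7 NRF2 members 1 with it and 13 with the covariate, and 4 to 9 by leaving out 1 library. By dose, no filter gave 6, 5, 52, 1, 3 and 29 calls from 0.4 to 100 µM, no plate term 5 at 1.2 µM and 6 at 100 µM, and replicate 1 gave 0 at 1.2 and 3.7 µM. Leaving out 1 DMSO library gave 0 to 5, 0 to 330, 0 to 43 and 0 to 40 at 0.4, 3.7, 33.3 and 100 µM. The 73 probes of PFOS as a group became 5 with plate 2 only and 0 with replicate 1, and 4 to 88 by leaving out 1 library. The cause of these shifts was not tested. The depth of 2269704 counts at 100 µM limits genes under about 2 CPM there.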
